A study of Mus musculus with 6 samples.

Results

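The Ly6 surface protein genes described here are 7 genes of the deposited mouse table, Ly6a, Ly6c1, Ly6d, Ly6e, Ly6h, Lypd3 and Plaur. Each was found as the row whose gene field names it, so that 7 of 44519 rows were used, and each name matched 1 row. The 7 were picked with the difference between the groups already known. Their values in the comparison are therefore a description without a test.

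The study sequenced RNA of horizontal basal cells (HBCs), reserve stem cells of the nose that rest on the basal lamina, sorted by flow cytometry from olfactory neuroepithelium on the GFP of a Krt17-EGFP reporter. TNF libraries (replicates 1, 3 and 4, n = 3) came from mice that carried Cyp2g1-rtTA and TRE-TNF along with the reporter and had doxycycline for 6 weeks. In those mice the promoter of Cyp2g1, a sustentacular cell gene, drives the doxycycline-dependent activator that switches on tumor necrosis factor (TNF). Control libraries (replicates 1, 2 and 4, n = 3) came from mice with the Krt17-EGFP reporter alone and no doxycycline on record, so the reporter is shared by both groups while the TNF transgenes and doxycycline differ together and cannot be told apart. The sources used here do not give the ages of the mice or whether a library came from 1 animal, and p-values measure only the spread among these samples.

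Proteins of the Ly6/uPAR family carry 1 or more small cysteine-rich domains whose disulfide bonds hold out finger-like loops, and most are tied to the outer cell membrane by a glycosylphosphatidylinositol (GPI) anchor. Some are induced by interferons and cytokines, such as Ly6a and Ly6e, while others bind nicotinic acetylcholine receptors or mark stratified epithelium. Plaur, the urokinase receptor, carries several such domains and concentrates plasminogen activation at the cell surface.

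The cysteines of this fold can be followed in the coding sequence. Ly6a (chr15:74994877-74998031, minus strand, GRCm38) and Ly6h (chr15:75551268-75567255, minus strand) are shown because they moved in opposite directions. Coding bases 1 to 300 of their GENCODE M21 transcripts are printed, with in-frame cysteine codons in capitals. This stretch holds 11 of the 12 cysteine codons of Ly6a and 8 of the 11 of Ly6h, whose coding sequences run over 405 and 420 bases.
Ly6a: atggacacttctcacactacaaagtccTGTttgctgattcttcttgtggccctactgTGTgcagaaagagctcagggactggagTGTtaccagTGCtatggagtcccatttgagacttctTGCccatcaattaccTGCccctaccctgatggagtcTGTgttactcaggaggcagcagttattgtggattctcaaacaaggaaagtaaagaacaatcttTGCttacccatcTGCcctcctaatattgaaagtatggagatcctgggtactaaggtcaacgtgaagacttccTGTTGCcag
Ly6h: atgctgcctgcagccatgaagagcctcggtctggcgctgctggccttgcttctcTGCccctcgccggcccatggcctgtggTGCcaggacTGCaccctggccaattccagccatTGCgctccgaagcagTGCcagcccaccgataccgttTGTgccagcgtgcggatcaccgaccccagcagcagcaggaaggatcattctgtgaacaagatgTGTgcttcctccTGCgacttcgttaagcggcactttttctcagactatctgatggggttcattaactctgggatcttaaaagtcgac

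The remaining short members had 12 cysteine codons in Ly6c1, 11 in Ly6d and 10 in Ly6e, over coding lengths of 396, 384 and 411 bases. Lypd3 and Plaur are longer, with 19 and 29 cysteine codons over 1092 and 984 bases. Ly6c1 (chr15:75044018-75048830, minus strand) lies beside a near copy, Ly6c2 (chr15:75108158-75111970, minus strand), and their coding sequences differ at 9 of 396 bases. The stretch of 60 bases with the most differences, from coding base 6 to coding base 65, is shown because it bears on which gene a read is given to. Capitals mark the 6 bases that differ.
Ly6c1: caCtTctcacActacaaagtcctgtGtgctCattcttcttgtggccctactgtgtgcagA
Ly6c2: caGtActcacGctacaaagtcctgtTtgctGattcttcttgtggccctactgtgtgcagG

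Of the 50-base words in the Ly6c1 coding sequence, 46.7% also occur in a transcript of another gene, which for Ly6c1 was Ly6c2. For Ly6a the share was 14.3%, mainly with Ly6i, whose coding sequence is 86.4% identical. The share was 0 for Ly6d, Ly6e, Ly6h, Lypd3 and Plaur. No source used here states how reads that fit several genes were assigned, so the Ly6c1 level is uncertain and the Ly6a level less so. The deposited table moreover lists Ly6a, Ly6c1 and Ly6c2 under 1 shared locus (chr15:74994877-75111970), together with 5 further rows.

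Expression was deposited as FPKM (fragments scaled to transcript length and to mapped fragments), a measure per length, so levels can be set side by side between genes. FPKM summed to 688190 to 838417 in TNF libraries and 769766 to 837515 in Control libraries. Rows with at least 1 FPKM numbered 13242 to 13542 in TNF libraries and 15014 to 15202 in Control libraries. The sort was examined through 12 HBC markers, which matched 11 rows and summed to 4889 to 7664 FPKM in TNF libraries and 742 to 3278 FPKM in Control libraries, with Control replicate 4 lowest. Most of that sum was the merged row of Krt14 and Krt17, at 3645 to 5651 FPKM in TNF libraries and 402 to 2265 FPKM in Control libraries. Cxcl14 of the same list ran the other way without overlap, at 1.85 ± 0.739 FPKM in TNF libraries and 5.88 ± 2.03 FPKM in Control libraries (SD, n = 3 each). Trp63, the transcription factor of basal cells, was at 97.2 ± 18.8 FPKM in TNF libraries and 75.3 ± 9.43 FPKM in Control libraries (SD, n = 3 each). None of the HBC markers was at 0 throughout either group. Sustentacular markers summed to 4444 to 9496 FPKM in TNF libraries and 3371 to 8025 FPKM in Control libraries, mostly from Cbr2. Respiratory ciliated and secretory markers summed to 5111 to 5817 FPKM in TNF libraries and 2174 to 8571 FPKM in Control libraries, mostly from Bpifa1. Both sums were above the HBC sum in every Control library, and in TNF libraries neither was always above or always below it. Mature olfactory neuron markers summed to 1150 FPKM in TNF replicate 1, to 36.8 to 46.4 FPKM in the other TNF libraries and to 3386 to 6657 FPKM in Control libraries. Endothelial markers summed to 4.90 FPKM in TNF replicate 1, to 216 and 306 FPKM in TNF replicates 3 and 4 and to 68.3 to 124 FPKM in Control libraries. TNF replicate 1 and Control replicate 4 thus stood apart, and values that rest on them are given with and without them.

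In the TNF libraries Ly6a, Ly6d, Ly6e and Ly6c1 stood higher and Ly6h lower in every library than in any Control library. Plaur was high in only some TNF libraries, and Lypd3 stayed near 1 FPKM. Summed over the 7 genes, the level was 2008, 2162 and 2213 FPKM in TNF replicates 1, 3 and 4, against 420, 622 and 499.9 FPKM in Control replicates 1, 2 and 4. Ly6e alone made up 58.8% to 74.8% of that sum in TNF libraries and 53.2% to 81.9% in Control libraries.

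**Figure D1:**
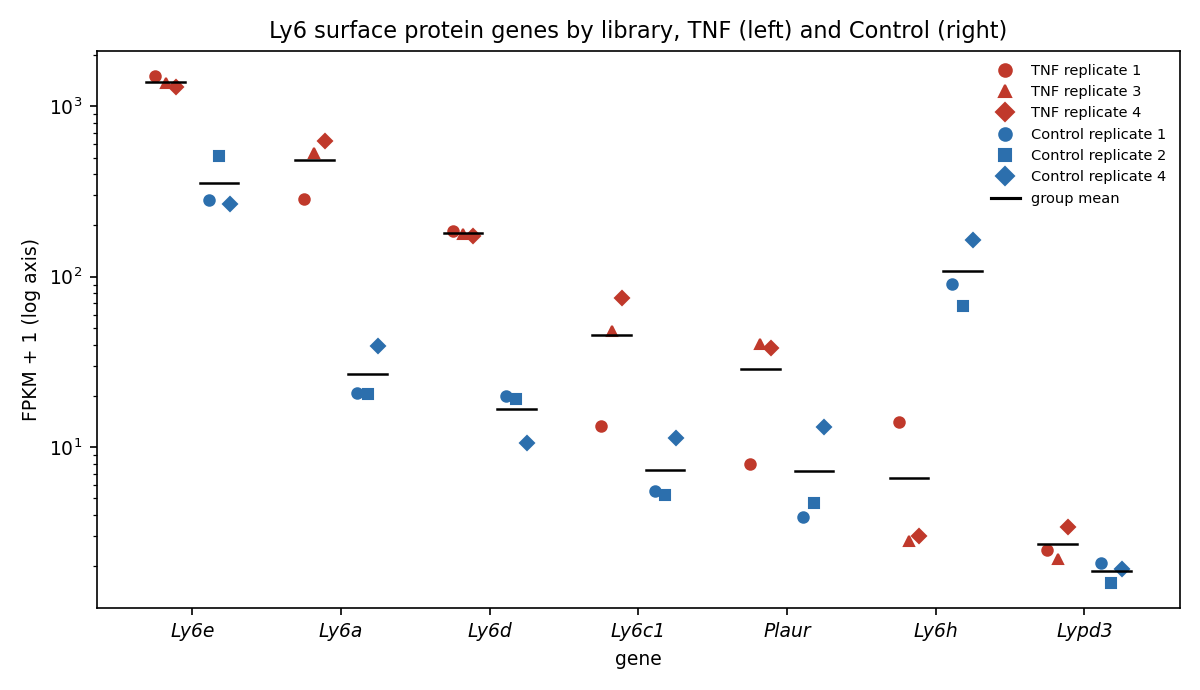
FPKM + 1 on a log axis for the 7 genes in each library, with TNF libraries in red left of Control libraries in blue, the marker shape giving the replicate number and a black line the group mean. Ly6e and Ly6d form tight groups in TNF libraries (1301 to 1503 and 172 to 185 FPKM), while TNF replicate 1 lies apart from TNF replicates 3 and 4 for Ly6c1, Plaur and Ly6h.

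All 7 genes passed the filter of at least 1 FPKM in at least 3 libraries. Among the 7, 5 had all TNF libraries above all Control libraries and 1 had them all below, where the same held for 16.8% and 36.2% of the 15037 rows tested, 53.0% in all. In the limma fit over all rows, 4 of the 7 were past an adjusted p of 0.05 upward and 1 downward, where 10.9% of rows were called higher and 27.2% lower, 38.0% in all. Since the 7 were chosen on this contrast, nothing is read from these counts.

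Ly6e encodes a small GPI-anchored protein induced by interferon, which serves as a receptor for a placental syncytin in mice and restricts the entry of coronaviruses. It was the highest of the 7 in both groups, and only 0.47% of tested rows had a larger mean. Ly6e (chr15:74955051-74959905, plus strand) stood at 1503, 1366 and 1301 FPKM in TNF replicates 1, 3 and 4, against 282, 510 and 266 FPKM in Control replicates 1, 2 and 4. The groups did not overlap, and the lowest TNF library was more than 2 times the highest Control library. The ratio of means was 3.94, and the difference on the log2(FPKM + 1) scale was 2.04 ± 0.30 (SE). The TNF libraries varied less than the Control libraries, with coefficients of variation of 7.42% and 38.6%.

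Ly6a encodes Sca-1, the surface antigen used to isolate mouse blood stem cells, which is also carried by endothelial cells and some fibroblasts. Its level was 286, 529 and 625 FPKM in TNF replicates 1, 3 and 4, against 19.7, 19.4 and 38.1 FPKM in Control replicates 1, 2 and 4. Every TNF library was above every Control library, and TNF replicate 1 was the lowest of its group. The ratio of means was 18.6, or 22.4 with TNF replicate 1 left out, and the difference was 4.16 ± 0.38 on the log2(FPKM + 1) scale. In TNF replicate 1, with 286 FPKM of Ly6a, the 14 endothelial markers summed to 4.90 FPKM, below the 68.3 FPKM of the lowest Control library, and Kdr, the main receptor for vascular growth factor, was listed at 0. The 10 fibroblast markers summed to 73.4 FPKM there, against 151 FPKM in the lowest Control library. Fbln1 of that list went the other way, at 31.8 FPKM in TNF replicate 1 and 8.73 to 16.0 FPKM in Control libraries. Dpt and Mfap5 were listed at 0 in TNF replicate 1, but reached only 0.126 and 0.626 FPKM in Control libraries. Both marker sums of TNF replicate 1 were below those of all Control libraries. In TNF replicates 3 and 4, where Ly6a was higher, the endothelial sums were 216 and 306 FPKM and the fibroblast sums 1135 and 1614 FPKM. The part of endothelial and fibroblast RNA in the Ly6a level was not tested in any library. In bulk samples more cells of a type and more RNA per cell cannot be told apart.

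Ly6c1 encodes a Ly6C antigen of monocytes, T cells and endothelium. Its level was 12.3, 46.8 and 73.9 FPKM in TNF replicates 1, 3 and 4, against 4.50, 4.21 and 10.3 FPKM in Control replicates 1, 2 and 4. The groups did not overlap, but TNF replicate 1 lay close to Control replicate 4. The ratio of means was 7.01, or 9.54 without TNF replicate 1, and the difference was 2.40 ± 0.66 on the log2 scale. Without both TNF replicate 1 and Control replicate 4 the difference was 3.48 ± 0.23. Across the TNF libraries Ly6c1 was lowest where the endothelial sum was lowest and highest where it was highest, and the part of endothelial RNA in its level was not tested. Ly6c2, expressed by monocytes and the near copy of Ly6c1, measured 3.88, 0.813 and 0.503 FPKM in TNF replicates 1, 3 and 4, against 0.581, 0.587 and 0.392 FPKM in Control replicates 1, 2 and 4, and missed the filter. The ratio of Ly6a to Ly6c1 was 23.3, 11.3 and 8.46 in TNF replicates 1, 3 and 4, against 4.38, 4.61 and 3.72 in Control replicates 1, 2 and 4.

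Ly6d encodes a surface antigen of stratified epithelium and of early B cell progenitors. Its level was 185, 178 and 172 FPKM in TNF replicates 1, 3 and 4, against 19.1, 18.3 and 9.54 FPKM in Control replicates 1, 2 and 4. The TNF libraries lay within a narrow range (coefficient of variation 3.79%), far above the Control libraries. The ratio of means was 11.4, or 11.2 without TNF replicate 1, and the difference was 3.49 ± 0.27 on the log2 scale. The 8 B and plasma cell markers summed to 38.1 to 71.8 FPKM in TNF libraries and 28.5 to 129 FPKM in Control libraries, ranges that overlap where those of Ly6d do not.

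Lypd3 encodes C4.4A, a relative of the urokinase receptor found in the upper layers of stratified epithelium. It was the lowest of the 7, at 1.49, 1.22 and 2.38 FPKM in TNF replicates 1, 3 and 4, against 1.10, 0.607 and 0.939 FPKM in Control replicates 1, 2 and 4. The groups were separated by a narrow margin, 1.22 against 1.10 FPKM. The ratio of means was 1.92 and the difference 0.50 ± 0.22 on the log2 scale, which turned to −0.33 when the libraries were scaled to the HBC marker list. Its exons overlap those of the antisense gene Gm26550 over 225 bases, and since no source used here states whether counting used strand, its value is uncertain.

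Ly6h encodes a brain Ly6 protein that binds nicotinic acetylcholine receptors and reduces their number at the surface. It ran against the other members, at 13.1, 1.80 and 2.02 FPKM in TNF replicates 1, 3 and 4, against 90.1, 66.6 and 163 FPKM in Control replicates 1, 2 and 4. The groups did not overlap, and TNF replicate 1 stood above the other TNF libraries. The difference was −4.35 ± 0.67 on the log2 scale and −5.11 without TNF replicate 1. As a ratio of means it was 0.0528, or 0.0179 with TNF replicate 1 left out. Immature olfactory neuron markers summed to 463, 278 and 266 FPKM in TNF replicates 1, 3 and 4, against 6495, 4607 and 9886 FPKM in Control replicates 1, 2 and 4. Ly6h and both neuron marker sums had their lowest Control value in Control replicate 2 and their highest in Control replicate 4, and the part of neuronal RNA in the Ly6h level was not tested.

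Plaur (chr7:24462484-24475968, plus strand) encodes the urokinase receptor, which NF-kB and AP-1 are known to induce. Plaur FPKM were 7.00, 39.4 and 37.0 in TNF replicates 1, 3 and 4, against 2.88, 3.73 and 12.2 FPKM in Control replicates 1, 2 and 4. The groups overlapped, because TNF replicate 1 lay below Control replicate 4. The ratio of means was 4.45, or 6.11 without TNF replicate 1, and the difference was 1.89 ± 0.74 on the log2 scale. Without both of those libraries it was 3.19 ± 0.16. Macrophage and monocyte markers, cells that carry the receptor, summed to 1629, 826 and 803 FPKM in TNF replicates 1, 3 and 4, against 375, 419.7 and 1655 FPKM in Control replicates 1, 2 and 4. Control replicate 4 was the highest control for both Plaur and these 14 markers. TNF replicate 1 had the highest marker sum and the lowest Plaur of its group. Of these markers Cd14, with 552 to 1085 FPKM in TNF libraries and 69.5 to 124 FPKM in Control libraries, made up most of the TNF sums. Adgre1, which encodes F4/80, stayed between 0.378 and 0.431 FPKM in TNF libraries and between 3.16 and 22.1 FPKM in Control libraries. The endothelial and fibroblast sums were also lowest of the TNF group in TNF replicate 1, at 4.90 and 73.4 FPKM. The part of macrophage, endothelial or fibroblast RNA in the Plaur level was not tested.

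The Plaur promoter, from 250 bases before to 50 bases after the start site, is shown because it held the single match to an inducible factor's motif among the members searched. RefSeq promoters (GRCm38.p6) were available for 3 of the 7 genes, Ly6c1, Lypd3 and Plaur. Capitals mark the single match to the AP-1 motif TGANTCA, which begins at position −69 from the start site (chr7:24462233-24462532, plus strand).
Plaur: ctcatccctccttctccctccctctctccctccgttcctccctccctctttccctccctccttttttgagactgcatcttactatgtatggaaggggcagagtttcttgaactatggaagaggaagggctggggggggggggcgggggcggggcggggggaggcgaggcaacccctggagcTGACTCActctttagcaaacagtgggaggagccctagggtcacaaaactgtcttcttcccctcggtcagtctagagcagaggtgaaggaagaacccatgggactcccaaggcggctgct

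Both strands were searched for 5 motifs, and no matches overlapped. TGANTCA is held by 7.81% of the 32851 promoters in the table. The GAS motif TTCNNNGAA is held by 8.30%, the ISRE core (GAAA and GAAA with 2 free bases between) by 3.44% and the NF-kB form (GGG and TTTCC with 2 free bases between) by 1.63%, and these letters were not in the windows of Ly6c1, Lypd3 or Plaur. The TATA motif TATAAA, held by 13.6% of promoters, occurred once in a promoter of Ly6c1. A match is a description of the letters, not a site of binding.

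The order of mean levels was Ly6e, Ly6a, Ly6d, Ly6c1, Plaur, Ly6h and Lypd3 in TNF libraries and Ly6e, Ly6h, Ly6a, Ly6d, Ly6c1, Plaur and Lypd3 in Control libraries. Among neighbours in the TNF order, Ly6e, Ly6a and Ly6d were separated in all libraries, while Ly6c1 and Plaur, Plaur and Ly6h, and Ly6h and Lypd3 overlapped. In the Control order, Ly6d and Ly6c1 overlapped, as did Ly6c1 and Plaur. Ly6h took the sixth place in TNF libraries, against the second in Control libraries.

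Likeness to each member except Lypd3, which was too low, was measured between log2(FPKM + 1) profiles over the 6 libraries, each centred on its own mean. The measure was the mean absolute difference, among 9854 rows with a mean of at least 5 FPKM. The members themselves, genes named only by a Gm number and Rik clones were left out of these rows, so none of them could be returned. Nearest to Ly6e were Cxcl16, a membrane-bound chemokine, at 0.0501 and Relt, a TNF receptor family member, at 0.0792. The rows nearest to Ly6a were Il23a, a cytokine subunit, at 0.184 and its own relative Ly6i at 0.202. Sftpd, a surfactant collectin, and Alox12, a lipoxygenase, were nearest to Ly6d at 0.167 and 0.177. For Ly6h they were Dyrk4, a kinase, at 0.0849 and Scg3, a secretory granule protein, at 0.133. For Ly6c1 they were Gbp7, a guanylate binding protein, at 0.235 and Fam26f at 0.285, and for Plaur they were Fam26f at 0.219 and Ctsc, cathepsin C, at 0.256. Fam26f, which was among the nearest rows of both Ly6c1 and Plaur, measured 1.88, 16.7 and 23.8 FPKM in TNF replicates 1, 3 and 4, against 1.11, 1.12 and 4.92 FPKM in Control replicates 1, 2 and 4.

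**Figure D2:**
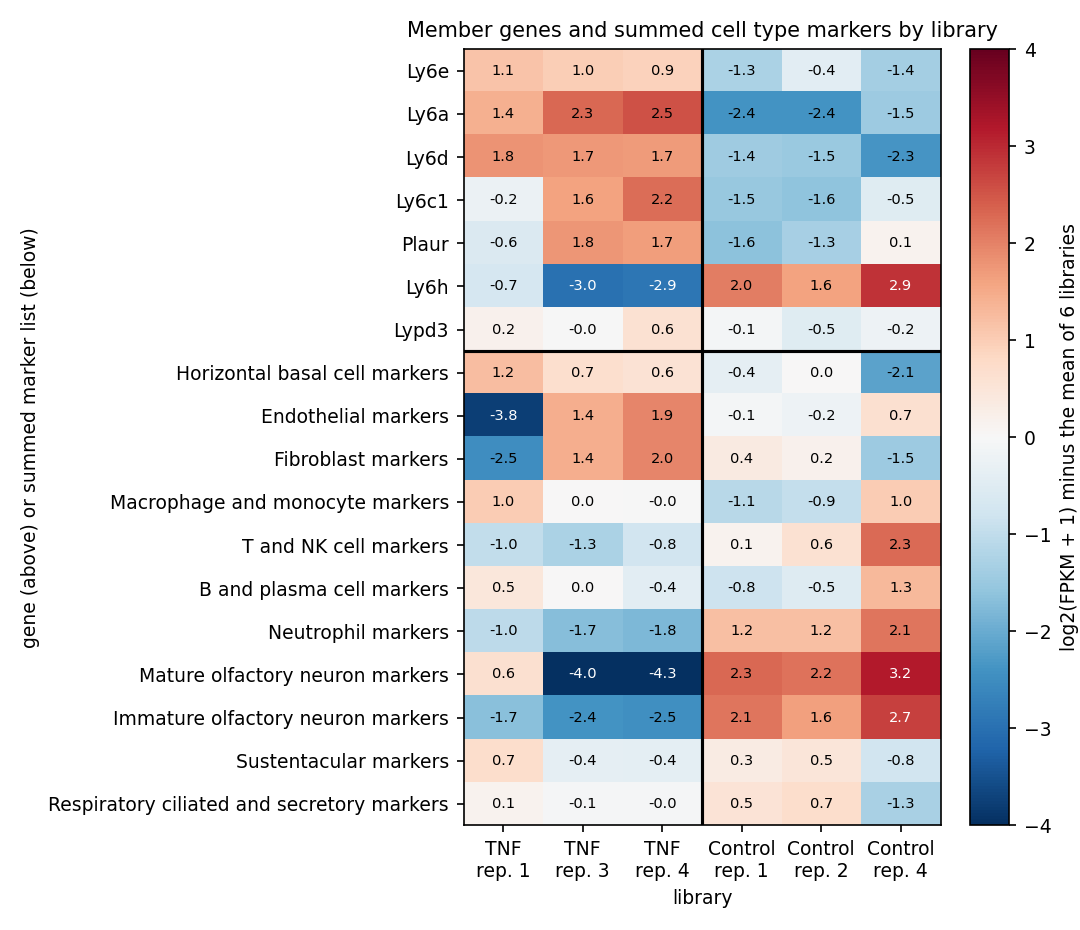
Rows give the 7 genes above and 11 summed cell type marker lists below, columns the 6 libraries with TNF left of Control, and colours and numbers the log2(FPKM + 1) minus the mean of the row. Ly6e and Ly6d are even across TNF libraries, whereas TNF replicate 1 is below the other TNF libraries in Ly6c1 and Plaur and in the endothelial and fibroblast sums.

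Across the rest of the Ly6/uPAR family, Ly6i and Ly6k rose and Lypd1 fell. Of 56 further family genes listed, 53 matched 50 rows, 37 of which missed the filter, 13 of them at 0 throughout. Of the 13 rows tested, 6 rose, 1 fell and 6 did not pass, with a median log2 change of 0.78 against −0.22 for all 15037 rows tested (limma, adjusted p below 0.05). The rows called were 10.9% upward and 27.2% downward over the whole table. Slurp1 and Pinlyp passed the filter only through TNF libraries and Lypd1 only through Control libraries. The filter itself thus favoured a group difference in these rows. Leaving out TNF replicate 3 or 4 or Control replicate 1 or 4 lowered the family count to 3 higher, and leaving out Control replicate 2 lowered it to 2. Lypd1 left the filter without any 1 Control library, and without TNF replicate 1 the count was 2 lower.

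Ly6i, the most like Ly6a in coding sequence among the genes aligned with it, measured 18.8, 27.5 and 31.1 FPKM in TNF replicates 1, 3 and 4. In Control replicates 1, 2 and 4 it measured 0.584, 0.403 and 1.22 FPKM. The groups lay far apart, and the change was 3.95 ± 0.28 on the log2 scale (adjusted p = 0.000397, limma), close in size to that of Ly6a, with which it shares 9.27% of its 50-base words (Ly6g included). Ly6k, known for its part in sperm function, measured 9.53, 24.4 and 19.5 FPKM in TNF replicates 1, 3 and 4, against 5.09, 1.56 and 0.146 FPKM in Control replicates 1, 2 and 4. It rose by 2.75 ± 0.64 (adjusted p = 0.0151, limma), a call lost without TNF replicate 3 or Control replicate 2, and its exons overlap those of the antisense gene Gm17189 over 395 bases. Lypd1, a brain protein that binds nicotinic receptors as Ly6h does, measured 0.953, 0.725 and 0.653 FPKM in TNF replicates 1, 3 and 4, against 17.8, 12.0 and 20.8 FPKM in Control replicates 1, 2 and 4. It changed by −3.30 ± 0.25 (adjusted p = 0.00042, limma), and 1202 exonic bases are shared with Gpr39 on the other strand. The neuron marker sums were likewise lower in TNF libraries than in Control libraries, and their part in the Lypd1 level was not tested.

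Smaller rises were called for 4 family genes. Lynx1, a membrane-tethered brake on nicotinic receptors, averaged 9.70 ± 1.86 FPKM in TNF libraries and 3.98 ± 0.352 FPKM in Control libraries (SD, n = 3 each), a rise of 1.09 ± 0.21. Slurp1, a secreted Ly6 protein of keratinocytes, rose by 0.82 ± 0.20, Pinlyp by 0.83 ± 0.21 and Ly6g6e by 0.78 ± 0.21 on the log2 scale. Scaled to the HBC markers, these became −0.18 for Lynx1, −0.03 for Slurp1 and −0.20 for Ly6g6e, so the direction of those 3 genes depends on the scaling. Slurp1, Pinlyp and Ly6g6e no longer passed once 1 Control library, whichever it was, had been dropped, and Ly6g6e also failed without TNF replicate 4. Slurp1 and Pinlyp left the filter, and so the test, without any 1 TNF library. On the other strand, Slurp1 shares 322 exonic bases with Them6 and Ly6g6e shares 229 with Ly6g6d.

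The 6 rows that did not pass included the most abundant relatives. Lypd2 measured 360, 214 and 211 FPKM in TNF replicates 1, 3 and 4, against 157, 160.0 and 83.2 FPKM in Control replicates 1, 2 and 4, without overlap but with an adjusted p of 0.0594 (limma). Cd59a, which blocks the membrane attack complex of complement, was at 54.6 to 86.6 FPKM in TNF libraries and 28.2 to 64.7 FPKM in Control libraries (adjusted p = 0.398, limma). Its copy Cd59b averaged 5.52 ± 1.58 FPKM in TNF libraries and 3.74 ± 0.114 FPKM in Control libraries (SD, n = 3 each). Lypd6b was at 4.67 ± 1.15 FPKM in TNF libraries and 3.17 ± 1.79 FPKM in Control libraries, and Ly6g6d at 2.07 ± 0.758 FPKM in TNF libraries and 1.68 ± 0.549 FPKM in Control libraries. Slurp2, listed under the older name 2300005B03Rik, measured 1.86, 0 and 0.192 FPKM in TNF replicates 1, 3 and 4, against 1.40, 1.53 and 3.23 FPKM in Control replicates 1, 2 and 4. Ly6g, the neutrophil antigen, reached 0.0445 FPKM in 1 TNF library and was listed at 0 in the others and in all Control libraries.

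Ly6d, Ly6e, Ly6a, Ly6c1 and Ly6h and many relatives lie in a single cluster on chromosome 15. From Psca to Gpihbp1 (chr15:74714839-75599481, GRCm38) the table holds 49 rows, 20 of them at 0 throughout, and 13 were tested. Besides the 5 members, 8 rows were tested there, of which 4 rose, 1 fell and 3 did not pass, where 10.9% of all rows tested were called higher and 27.2% lower. The 4 that rose, Slurp1, Lynx1, Ly6k and Ly6i, were already counted among the family rows above, so this count is not a further observation. Slurp1 passed the filter only through TNF libraries. Ly6k, Ly6e, Ly6i, Ly6a and Ly6c1 follow one another among the tested rows and were all higher in TNF libraries, whereas Ly6h at the far end was lower. At the near end Them6, a thioesterase family gene whose locus is shared with Slurp1, measured 5.69, 1.39 and 1.45 FPKM in TNF replicates 1, 3 and 4, against 12.8, 11.0 and 33.6 FPKM in Control replicates 1, 2 and 4. It changed by −2.40 ± 0.56 (adjusted p = 0.0152, limma). D730001G18Rik, between Ly6d and Ly6k, was at 2.12 to 2.86 FPKM in TNF libraries and 1.23 to 2.73 FPKM in Control libraries and did not pass.

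**Figure D3:**
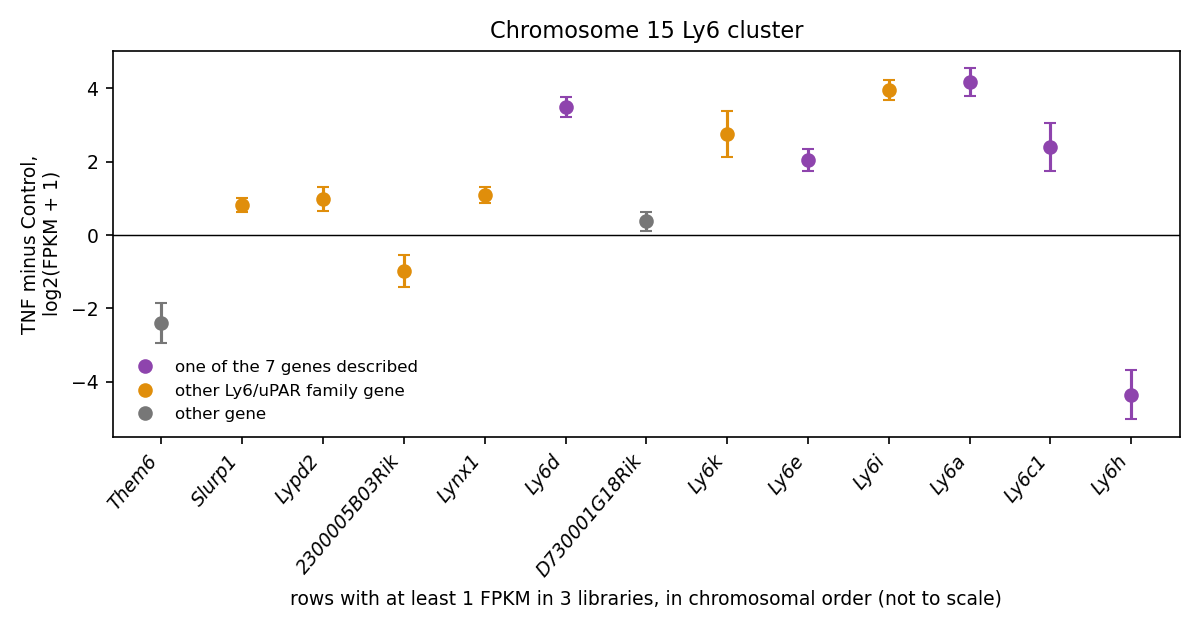
Difference between TNF and Control libraries on the log2(FPKM + 1) scale, with its standard error, for the 13 tested rows of the chromosome 15 cluster in their chromosomal order. Ly6d and the run from Ly6k to Ly6c1 lie above 0, and Ly6h, at the right end, lies at −4.35.

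Genes that act with these proteins were examined in 4 lists. For the urokinase receptor, 22 rows of plasminogen activation and receptor partners were tested, of which 7 rose, 2 fell and 13 did not pass, with a median of 0.82 against −0.22 for all rows tested. Over all rows 10.9% were called higher and 27.2% lower. The urokinase gene Plau itself, the ligand of Plaur, missed the filter, at 0.0394 to 0.126 FPKM in TNF libraries and 0.145 to 0.430 FPKM in Control libraries, and Plg, which encodes plasminogen, did not exceed 0.0494 FPKM in any library. Serpine2, an inhibitor of plasminogen activators, measured 187, 138 and 172 FPKM in TNF replicates 1, 3 and 4, against 479.6, 372 and 653 FPKM in Control replicates 1, 2 and 4, a change of −1.56 ± 0.26 (adjusted p = 0.00393, limma). Vtn, which encodes vitronectin, the matrix ligand of the receptor, changed by −3.36 ± 0.56 and measured 0.176, 1.25 and 1.85 FPKM in TNF replicates 1, 3 and 4, against 43.2, 14.2 and 11.2 FPKM in Control replicates 1, 2 and 4. Among genes that rose, Lrp1, the endocytic receptor that clears urokinase complexes, changed by 1.79 ± 0.32, and the integrin genes Itgav and Itga3 by 1.59 ± 0.33 and 1.29 ± 0.27. Anxa2, Itga5 and Itgb6 were also among the rises. Scaled to the HBC markers 0 of these were called higher, and Itga3 stood at −0.09 and Anxa2 at −0.41. Without TNF replicate 1 the count was 11 higher, without TNF replicate 3 or 4 or Control replicate 1 it was 3, and without Control replicate 2 or 4 it was 4. The highest row of the list, Eno1, an enolase that binds plasminogen, was at 578 ± 180 FPKM in TNF libraries and 850 ± 125 FPKM in Control libraries (SD, n = 3 each) and did not pass.

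Among genes that build and attach the GPI anchor, 30 rows were tested, of which 0 rose, 2 fell and 28 did not pass (limma, adjusted p below 0.05). Over all rows 10.9% were called higher and 27.2% lower, and the list median was −0.14 against −0.22 for all rows. Scaling to the HBC markers gave 16 lower rows. The fit with the replicate number as a block, which compares only libraries whose number both groups share, gave 0. At an unadjusted p below 0.05 there were 0 higher and 3 lower rows. Pigf, which adds ethanolamine phosphate to the anchor, was at 25.5 ± 6.36 FPKM in TNF libraries and 62.3 ± 7.29 FPKM in Control libraries (SD, n = 3 each), a change of −1.27 ± 0.21 (adjusted p = 0.00405, limma), and shares 312 exonic bases with Rhoq. The merged row of Ncbp2 and Pigz changed by −1.03 ± 0.15, and which of both genes it reflects is unknown. Pigp, in the first step of assembly, was at 163 ± 53.8 FPKM in TNF libraries and 229.9 ± 26.6 FPKM in Control libraries, and the merged row of Adnp, Dpm1 and Gm20716 at 197 ± 39.4 FPKM in TNF libraries and 257 ± 23.1 FPKM in Control libraries. Leaving out TNF replicate 1 gave 7 lower rows.

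Nicotinic receptor subunits, the partners of Ly6h, Lypd1 and Lynx1, were scarce. Of 16 subunits 2 passed the filter, and 1 rose and 0 fell (limma), with 1 lower at an unadjusted p below 0.05. Over all rows tested 10.9% were called higher and 27.2% lower at the adjusted threshold, and nothing is read from a count over 2 rows. Chrnb1, the muscle-type beta subunit, measured 8.10, 7.02 and 7.55 FPKM in TNF replicates 1, 3 and 4, against 2.66, 2.98 and 3.32 FPKM in Control replicates 1, 2 and 4, a rise of 1.10 ± 0.19 (adjusted p = 0.0048, limma) that turned to −0.12 when scaled to the HBC markers. Chrnb2 was at 1.28 to 1.40 FPKM in TNF libraries and 1.86 to 2.29 FPKM in Control libraries and did not pass. It shares 1365 exonic bases with Adar on the other strand. Chrna7, the subunit that Ly6h is known to bind, was at 0.0372 to 0.176 FPKM in TNF libraries and 0.325 to 1.19 FPKM in Control libraries and missed the filter.

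Ly6d and Lypd3 belong to stratified epithelium, and a list of 30 genes of suprabasal and squamous layers gave mixed values. Of these, 14 missed the filter, among them Ivl, Krt4 and Krt13, which encode involucrin and keratins of stratified layers. Of the 16 rows tested 10 rose, 0 fell and 6 did not pass, with a median of 1.42 against −0.22 for all rows (limma, adjusted p below 0.05), where 10.9% of all rows were called higher and 27.2% lower. The 6 that did not pass all had negative differences, −0.55 for Krt1, −0.39 for Krt10, −0.93 for Sbsn, −0.89 for Dsc3, −0.23 for Agr2 and −0.89 for Agr3. At an unadjusted p below 0.05, 1 rows were lower. Sprr1a, a cornified envelope precursor, measured 33.6, 58.5 and 42.2 FPKM in TNF replicates 1, 3 and 4, against 2.93, 1.85 and 3.86 FPKM in Control replicates 1, 2 and 4, a rise of 3.56 ± 0.29 (adjusted p = 0.000476, limma). Ecm1, an extracellular matrix protein of skin, rose by 3.31 ± 0.46, Sfn, the epithelial 14-3-3 protein stratifin, by 3.10 ± 0.48 and the serpin gene Serpinb5 by 2.51 ± 0.37. The injury keratins rose too but stayed low. Krt6a was at 2.43 to 3.52 FPKM in TNF libraries and at or below 0.0904 FPKM in Control libraries, and Krt16 was at 1.44 to 2.93 FPKM in TNF libraries and at or below 0.290 FPKM in Control libraries. Krt6a, Krt16 and Tgm1, all counted among the rises, passed the filter only through TNF libraries and left it without any 1 of those. The filter itself favoured a group difference in such rows. Agr2, a secreted partner of Lypd3, did not pass and measured 213, 60.8 and 59.1 FPKM in TNF replicates 1, 3 and 4, against 131, 109 and 86.7 FPKM in Control replicates 1, 2 and 4. Without TNF replicate 1 or 3 the list counted 6 higher, and without TNF replicate 4 it counted 5. Dsc2, a desmosomal cadherin gene that rose by 1.30, stood at −0.09 when scaled to the HBC markers.

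**Figure D4:**
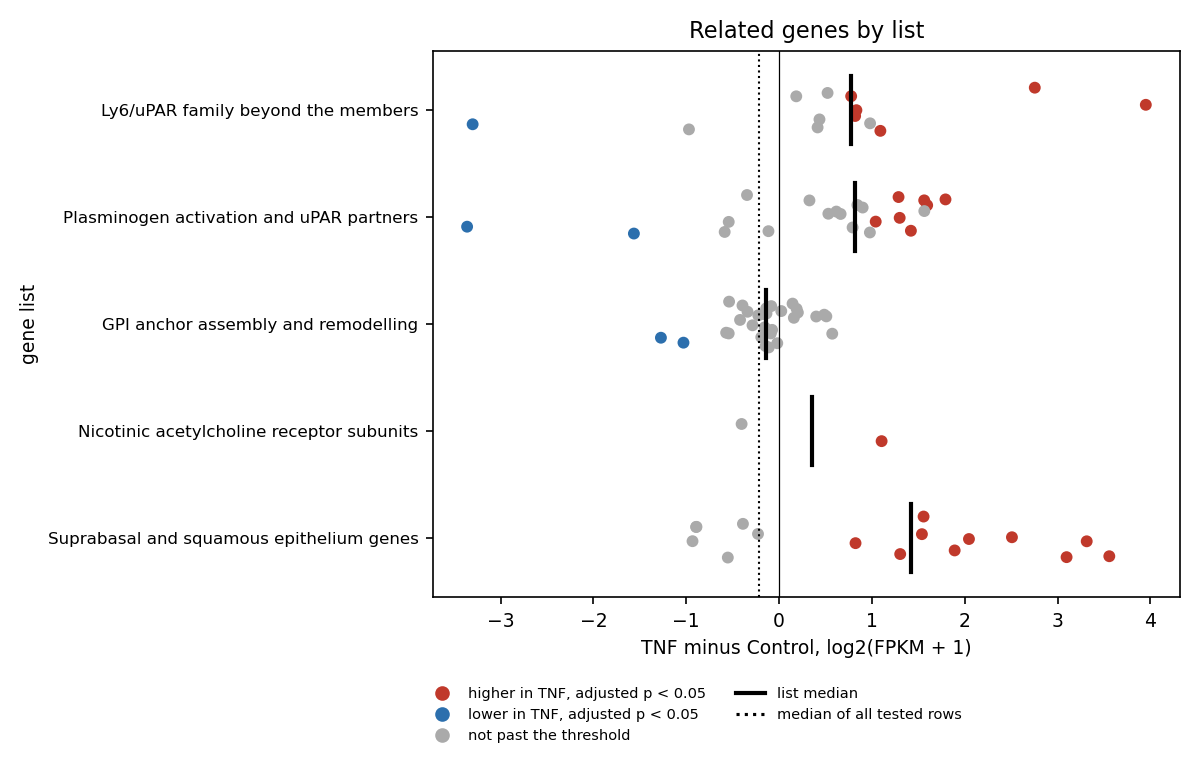
Difference between TNF and Control libraries on the log2(FPKM + 1) scale for each tested row of 5 gene lists, red for called higher, blue for called lower and grey for not called, with a black bar at the list median and a dotted line at the median of all tested rows, −0.22. The GPI anchor rows cluster near that line with a median of −0.14, and the suprabasal and squamous rows lie mostly to the right with a median of 1.42.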

How the data were processed

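RNA from GFP-positive cells sorted from olfactory neuroepithelium was measured in 3 TNF and 3 Control libraries. Per the labels' protocols, mRNA was amplified (Clontech SMARTer) before Nextera library preparation. The submitters' processing notes name TopHat2 (2.1.1), Cuffdiff (2.2.1), FastQC (0.10.1), bcl2fastq and mm10. No source used here states their roles, strand handling or the treatment of multiply fitting reads. Exons of further genes named here, such as Itgav, Anxa2 and Krt6a, also overlap a gene on the other strand.

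The authors deposited FPKM values in 1 table of 44519 rows. It is titled as raw counts, but 99.98% of values above 0 were not whole, so no count model was used. Read depth is unknown. Steps between low FPKM values put the worth of 1 fragment at 0.874 to 1.08 of its worth in Control replicate 1. Table starts count from 0 (75.6% of 22880 single loci then had the bounds of GENCODE M21), and coordinates are printed from 1.

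On log2(FPKM + 1), limma (3.58.1, R 4.3.3) with a mean-variance trend fitted the group difference. It ran on 15037 rows that reached 1 FPKM in 3 or more libraries, and the pseudocount was 1. P-values were adjusted over all these rows by the Benjamini-Hochberg method, threshold 0.05. Fold changes on this scale understate the change of low genes.

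The members and lists were chosen with earlier results of these data known. Named genes are the 7 members, tested family and cluster rows, up to 5 called rows with the smallest p and the 2 of highest mean per other list, the nearest profiles, and a few markers. Krt5, Tnf and most marker genes taken by the rule are omitted for length. Plau, Plg, Chrna7, Ly6c2, Ly6g, Dsc2, Anxa2, Itga5, Itgb6, Krt1, Krt10, Sbsn, Dsc3, Agr3, Ivl, Krt4, Krt13, Tgm1, Fbln1 and Cxcl14 were named after their values were seen. Symbols were matched to the row of highest mean, with older names from RefSeq (GRCm38.p6). Alternatives were: pseudocount 0.1; an unfiltered table; omission of single libraries; the replicate number as a block, median-of-ratios scaling, scaling to the HBC markers and the omission of TNF replicate 1 with Control replicate 4. Quantile normalization was added after the data were seen. Some results are not reported here.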

Additional observations from a re-analysis of the deposited data

How the results depend on the processing

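The sign of the difference held for all members under all alternatives run except Lypd3, which turned from a difference of 0.50 to −0.33 when scaled to the HBC markers. That scaling, which moves the median of all tested rows to −1.51, gave 2.73 for Ly6a, 1.04 for Ly6c1, 2.08 for Ly6d, 0.59 for Ly6e, −5.61 for Ly6h and 0.56 for Plaur. Without TNF replicate 1 and Control replicate 4 together, Ly6a was at 4.81, Ly6c1 at 3.48 and Plaur at 3.19. Lypd3 was at 0.85 with a pseudocount of 0.1 and at 1.2 after quantile normalization.

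With single libraries left out the differences ran from 3.94 to 4.50 for Ly6a, 1.88 to 3.12 for Ly6c1, 3.19 to 3.65 for Ly6d, 1.87 to 2.34 for Ly6e, −5.11 to −3.95 for Ly6h, 0.33 to 0.63 for Lypd3 and 1.49 to 2.65 for Plaur. The counts of called rows then ran from 795 to 2016 higher and 1609 to 4924 lower over the whole table, 2 to 4 and 0 to 2 for the family, 3 to 11 and 2 to 3 for plasminogen activation, 0 to 0 and 2 to 7 for the GPI anchor, 1 to 1 and 0 to 0 for nicotinic receptors, and 5 to 9 and 0 to 3 for squamous genes.

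Scaled to the HBC markers, 217 rows were higher and 8864 lower over the whole table, 2 and 4 in the family, 0 and 5 for plasminogen activation, 16 lower for the GPI anchor, 0 and 1 for nicotinic receptors, and 4 and 6 for squamous genes. With TNF replicate 1 and Control replicate 4 left out together, counts were 2529 higher over the whole table, 0 lower in the family, 11 and 4 for plasminogen activation, 1 and 8 for the GPI anchor, and 6 and 4 for squamous genes. Without the filter, 4 family rows were lower, 4 plasminogen rows higher, 1 nicotinic row lower and 1 squamous row lower. Quantile normalization called 2658 rows higher and 1 GPI row higher, and median-of-ratios scaling, which moves the overall median from −0.22 to 0.01, called 1 GPI row higher.

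The groups share replicate numbers 1 and 4, with correlations of deviations of −0.064 and −0.087. With 3 libraries per group these values cannot settle whether equal numbers mark paired libraries. With the replicate number as a block, 744 rows were higher and 2246 lower over the whole table, 2 family rows higher, 3 plasminogen rows higher, 0 GPI rows lower and 0 nicotinic rows higher. TNF replicate 3 and Control replicate 2 have no partner of the same number. The blocked fit therefore drew the group difference from replicates 1 and 4 alone, which include TNF replicate 1 and Control replicate 4. Its lost calls cannot be read as an effect of pairing. The causes of these shifts were not tested, and the unknown depth limits statements on genes near 1 FPKM.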
